A study of Mus musculus with 69 samples.

Results

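The genes followed here were 8 genes of macrophage uptake, out of the 24537 genes listed in each expression table. They were taken by symbol, and the choice was made with earlier results of these data known. They are the scavenger receptors Msr1, Marco, Cd163 and Stab1, the receptor tyrosine kinases Mertk and Axl, the phosphatidylserine receptor Timd4 and the bridging protein Mfge8. RNA-seq of bone marrow-derived macrophages (BMDMs, cells grown out of mouse bone marrow with M-CSF for 7 days) was available for 69 libraries. The mice were females of 8 to 12 weeks. The first table held BMDMs of C57BL/6J (C57), of BALB/cJ (BALB), of NOD/ShiLtJ (NOD), of the wild-derived PWK/PhJ (PWK) and of the wild-derived SPRET/EiJ (SPRET), each untreated (basal) or given 20 ng/ml IL-4 for 24 hours, with 3 libraries per group and 2 for basal PWK. The second was a time course of C57 and SPRET BMDMs at 0, 1, 6 and 24 hours of IL-4 with 2 libraries each. The third compared Egr2 fl/fl BMDMs, in which Egr2 is floxed but intact, with LyzM-Cre Egr2 fl/fl BMDMs, in which a Cre driven by the myeloid LyzM gene removes it, at the same 4 times with 2 libraries each. Both genotypes carry the floxed alleles, and no group with Cre alone was analysed here, so an effect of Cre and of the loss of Egr2 cannot be told apart. The last held F1 hybrids of C57 with SPRET or NOD, untreated or given IL-4 for 24 hours, with 2 libraries each and a value for each parental allele. The study calls its replicates biological, but the labels do not say which libraries came from separate mice, so p-values measure the spread between these libraries.

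Scavenger receptors bind modified lipoproteins, bacterial surfaces and other polyanionic or altered ligands and carry them into the cell. Removal of apoptotic cells, called efferocytosis, starts when phosphatidylserine appears on the outer face of the dying cell. TIM-4, the product of Timd4, binds that lipid directly. MERTK binds it through the bridging ligands GAS6 and protein S, and AXL binds it through GAS6. MFG-E8, the product of Mfge8, links it to integrins of the phagocyte. Resident macrophages of tissues are known for high TIM-4, CD163 or MARCO, and IL-4 drives macrophages to the alternatively activated state that is linked to repair.

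The libraries held 7.02 to 22.5 M tags in the 5 strains, 5.70 to 24.0 M tags in the time course and 4.69 to 32.9 M tags in the Egr2 table. Of 9 macrophage markers, Mertk among them, 8 or 9 had a group mean of at least 1 TPM in each group of the 5 strains. In basal NOD and basal PWK, the marker below 1 TPM was Mertk itself. The summed levels were 9507 to 30319 TPM, lowest in PWK. Markers of T, B and NK cells and of erythroid cells summed to under 1 TPM in each library. Those of neutrophils and their precursors summed to 551 to 601 TPM in PWK, with 5 of 9 at or above 1 TPM, and to 249 to 404 TPM in SPRET with 2 of 9, against at most 131 TPM in the other strains. Retnlg, a neutrophil gene, was listed at 0 in all libraries of the 5 strains and so did not set PWK or SPRET apart. Fibroblast and stromal markers summed to 106 to 212 TPM in PWK, with 2 or 3 of 6 at or above 1 TPM and Col3a1 at 0, against at most 16.7 TPM elsewhere. Endothelial markers summed to 0.771 to 1.33 TPM in SPRET and to 5.14 to 10.3 TPM in PWK, against 13.4 to 35.6 TPM in the other strains. In the time course they summed to 1.93 to 3.21 TPM in SPRET and to 43.5 to 74.4 TPM in C57. Mast cell and basophil markers summed to 4.91 to 9.13 TPM in SPRET of the 5 strains, above all other strains. In the time course they summed to 10.7 to 21.7 TPM in SPRET and to at most 0.582 TPM in C57. Dendritic cell markers there summed to 3.63 to 8.85 TPM in SPRET and to at most 1.19 TPM in C57, but they did not set SPRET apart in the 5 strains. The part of all these signals in the differences of PWK and SPRET described below was not tested. In bulk RNA, fewer cells of a type and less RNA per cell cannot be told apart. Differences were tested with limma on log2(TPM + 1), a scale on which fold changes of genes near or below 1 TPM are understated. All adjusted p-values are Benjamini-Hochberg values over the genes tested in a table, namely those that reached 1 TPM in 2 libraries or more. A difference passed the test at an adjusted p under 0.05, and it was called when it was also larger than 2-fold.

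The promoters of Mfge8, Axl and Marco are shown because these genes were called between strains and, for Mfge8 and Marco, between the Egr2 genotypes, while Axl set NOD apart. Each run is the 250 bases before the start annotated by RefSeq, 5′ to 3′ on the strand of the gene, on GRCm38.p6. Capitals mark GTGGGCG, a core of the sites bound by EGR factors.
Mfge8: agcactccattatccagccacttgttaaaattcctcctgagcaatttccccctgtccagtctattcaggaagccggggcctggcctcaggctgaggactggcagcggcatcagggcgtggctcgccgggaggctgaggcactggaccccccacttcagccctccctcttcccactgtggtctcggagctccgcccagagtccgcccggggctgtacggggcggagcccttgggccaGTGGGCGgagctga
Axl: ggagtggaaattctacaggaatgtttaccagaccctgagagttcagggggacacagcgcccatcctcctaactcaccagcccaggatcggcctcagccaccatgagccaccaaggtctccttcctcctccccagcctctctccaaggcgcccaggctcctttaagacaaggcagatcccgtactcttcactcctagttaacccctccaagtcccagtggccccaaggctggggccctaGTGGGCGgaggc
Marco: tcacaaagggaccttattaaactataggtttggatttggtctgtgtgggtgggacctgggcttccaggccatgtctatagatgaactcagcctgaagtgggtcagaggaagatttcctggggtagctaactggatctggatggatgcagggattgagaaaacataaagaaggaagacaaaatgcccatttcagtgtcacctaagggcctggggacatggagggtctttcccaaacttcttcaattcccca
The Mfge8 window (chr7:79149061-79149310, minus strand, 65.2% GC) held the core at 14 to 8 bases before the start, and the Axl window (chr7:25788734-25788983, minus strand, 60% GC) at 12 to 6 bases. The Marco window (chr1:120505025-120505274, minus strand, 47.6% GC) held none. RefSeq starts Marco further in than the deposited table does, so this window overlaps the gene as located below. A promoter was matched for 7 of the 8 genes, Msr1 not, and these windows were searched on both strands for the EGR core, the STAT motifs of TTC and GAA with gaps of 4 and 3 bases, GAGGAAGT of PU.1 and TGANTCA of AP-1. Only the Axl and Mfge8 windows held a match, the EGR core in both. Over 32851 mouse promoters of the same length, 7.02% held the EGR core, 5.85% and 7.02% the STAT motifs, 2.44% the PU.1 motif and 6.75% the AP-1 motif. A match of letters is a description and not a site.

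The strains differed from C57 mainly in Marco, Mfge8, Mertk and Axl. Of 7 genes tested (Cd163 was too low), 1 was called between BALB and C57 at basal conditions (Marco, lower), where 4.81% of all genes tested were called. Between NOD and C57, 3 were called (Mertk and Mfge8 lower, Axl higher), with 16.9% of all genes. Between PWK and C57, 3 were called (Marco, Mertk and Mfge8, all lower), with 13.3% of all genes. Between SPRET and C57, 3 were called (Marco and Mfge8 lower, Msr1 higher), with 18.1% of all genes. After IL-4, 1 gene was called in BALB against C57 (Marco, lower; all genes 5.39%), 3 in NOD (Axl higher, Mertk and Mfge8 lower; 13.2%), 3 in PWK (Marco, Mertk and Mfge8 lower; 12.2%) and 3 in SPRET (Marco, Stab1 and Mfge8 lower; 20.6%). Timd4 in NOD was also past both thresholds after IL-4, but it entered the test only through the IL-4 libraries of NOD and BALB and is left out of this count. The median of all genes tested was itself shifted by -0.30 in basal NOD and -0.16 in basal PWK against C57 on the log2 scale, and by -0.13 in NOD and 0.18 in SPRET after IL-4.

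On log2(TPM + 1), the genes called after 24 hours of IL-4 in the 5 strains were Marco and Stab1. No gene was called in C57, where 3.8% of all genes were, in NOD (1.19%) or in PWK (2.08%). Marco was called lower in BALB (2.08% of all genes), and Marco and Stab1 were called lower in SPRET (3.94%). The median of all genes moved by -0.11 in BALB, 0.12 in NOD and 0.11 in SPRET. A difference in response from C57 was called for 1 gene in SPRET (Stab1; 3.45% of all genes) and for none in BALB (1.49%), NOD (2.47%) or PWK (2.26%). The median of all genes shifted by 0.17, 0.13 and 0.16 in the response difference of NOD, PWK and SPRET.

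**Figure D1:**
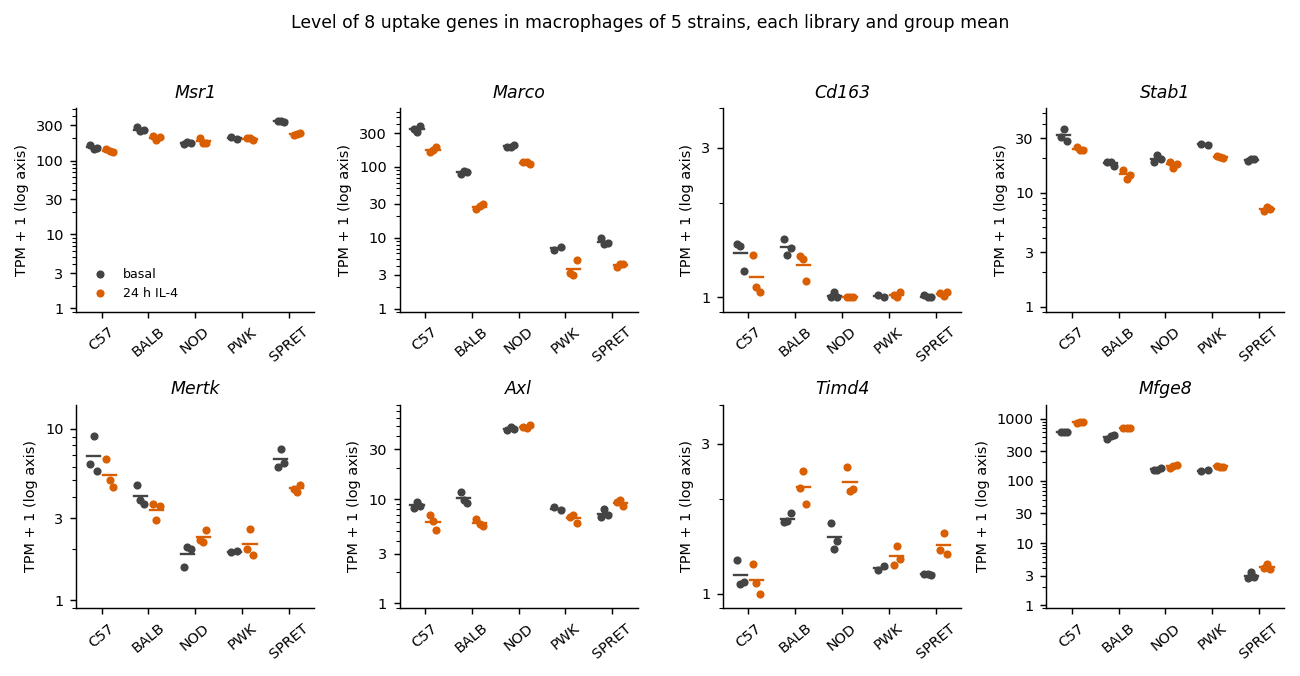
Level of the 8 genes in TPM on a log axis in each library of the 5 strains, without and with IL-4 for 24 hours. Points are libraries and bars are group means. Mfge8 falls from 611 TPM in basal C57 to 2.00 TPM in basal SPRET, Marco is under 9 TPM in all PWK and SPRET libraries, and Axl is above 44 TPM in all NOD libraries and under 11 TPM in all others.

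Marco (chr1:120474538-120505084, minus strand, mm10) encodes a collagen-like class A scavenger receptor that binds bacteria and unopsonised particles. Its basal libraries stood at 315, 342 and 376 TPM in C57, 189, 192 and 206 TPM in NOD, 78.2, 85.1 and 86.6 TPM in BALB, 7.13, 7.45 and 8.81 TPM in SPRET and 5.78 and 6.50 TPM in PWK. The 5 strains thus did not overlap. Against C57, the basal log2 difference was -0.81 in NOD (SE 0.12, adjusted p = 1.25e-06), -2.03 in BALB (SE 0.12, adjusted p = 3.47e-13), -5.29 in SPRET (SE 0.12, adjusted p = 1.27e-22) and -5.59 in PWK (SE 0.13, adjusted p = 1.5e-21). PWK and SPRET, next to each other in this order, differed by 0.30 (SE 0.13, adjusted p = 0.0469). As a ratio of mean TPM, C57 was 56.0 times PWK and 44.1 times SPRET.

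After 24 hours of IL-4, the Marco libraries stood at 160.5, 172 and 191 TPM in C57, 108, 115 and 117 TPM in NOD, 24.2, 26.7 and 28.7 TPM in BALB, 2.92, 3.20 and 3.28 TPM in SPRET and 1.94, 2.23 and 3.82 TPM in PWK. Every IL-4 library lay below every basal library of its strain. Marco fell by 0.97 in C57 (SE 0.12, adjusted p = 2.82e-07), by 1.62 in BALB (SE 0.12, adjusted p = 6.21e-11), by 0.78 in NOD (SE 0.12, adjusted p = 1.74e-05), by 1.00 in PWK (SE 0.13, adjusted p = 2.3e-06) and by 1.09 in SPRET (SE 0.12, adjusted p = 3.9e-08). C57 and PWK lay so close to 2-fold that single libraries moved them past it, as without the C57 IL-4 replicate 3 (-1.04) or the PWK basal replicate 1 (-1.07). PWK was also past 2-fold with a pseudocount of 0.1 TPM (-1.23) and after median-ratio rescaling (-1.11). Quantile normalization moved both past it, to -1.06 in C57 and -1.11 in PWK. SPRET came to -0.65 with a pseudocount of 5 TPM. The fall was larger in BALB than in C57 by 0.64 (SE 0.17, adjusted p = 0.00959), or 0.55 with an adjusted p of 0.0588 after rescaling each library by the median of its gene ratios. After IL-4, PWK and SPRET did not differ beyond their spread.

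Msr1 (chr8:39603452-39642678, minus strand) encodes the class A scavenger receptor that takes up modified lipoprotein. It was above 100 TPM in all libraries of the 5 strains. Its basal libraries stood at 143, 145 and 162 TPM in C57, 168, 173 and 175 TPM in NOD, 197 and 206 TPM in PWK, 249, 255 and 281 TPM in BALB and 328, 343 and 345 TPM in SPRET, again without overlap. Against C57 it was higher by 0.19 in NOD (SE 0.06, adjusted p = 0.00722), 0.42 in PWK (SE 0.07, adjusted p = 1.11e-05), 0.80 in BALB (SE 0.06, adjusted p = 1.23e-10) and 1.17 in SPRET (SE 0.06, adjusted p = 1.29e-14). After IL-4 the range closed to between 129.6 TPM in a C57 library and 233 TPM in a SPRET library, and the neighbours BALB and PWK, and PWK and NOD, did not differ beyond their spread. Msr1 fell by 0.38 in BALB (SE 0.06, adjusted p = 3.73e-05) and by 0.57 in SPRET (SE 0.06, adjusted p = 4.41e-08). In C57 the log2 change was -0.15 (adjusted p = 0.0598), in NOD 0.08 and in PWK -0.03, none of which passed. The fall in SPRET was larger than the change in C57 (SPRET minus C57 -0.42, SE 0.09, adjusted p = 0.000714).

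Stab1 (chr14:31139017-31168641, minus strand) encodes stabilin-1, an endocytic receptor for modified lipoprotein, SPARC and phosphatidylserine. Its exons overlap those of Nt5dc2 on the opposite strand, and whether reads were counted by strand is not given in the sources used here, so reads of the 2 genes may be mixed. The basal libraries of Stab1 stood at 27.3, 29.9 and 35.0 TPM in C57, 25.1 and 25.7 TPM in PWK, 17.7, 18.8 and 20.2 TPM in NOD, 18.0, 18.6 and 18.7 TPM in SPRET and 16.0, 17.4 and 17.7 TPM in BALB. NOD and SPRET overlapped, and all BALB libraries lay just below both. Neither NOD and SPRET nor SPRET and BALB differed beyond their spread. Against C57, the log2 difference was -0.81 in BALB, -0.67 in NOD and -0.70 in SPRET (SE 0.08 and an adjusted p of at most 1.91e-08 in each). The difference of PWK, -0.26, had an adjusted p of 0.0104, and of 0.455 after median-ratio rescaling.

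After IL-4, Stab1 libraries stood at 5.93, 6.11 and 6.54 TPM in SPRET, far below the 12.2, 13.2 and 14.8 TPM of BALB, the next lowest strain, and the 22.5, 22.7 and 24.3 TPM of C57. Stab1 fell in SPRET by 1.43 (SE 0.08, adjusted p = 3.55e-14). It fell by 0.39 in C57 (SE 0.08, adjusted p = 0.000212), 0.32 in BALB (SE 0.08, adjusted p = 0.00173) and 0.36 in PWK (SE 0.08, adjusted p = 0.00231), and its change of -0.17 in NOD did not pass. The fall was larger in SPRET than in C57 (SPRET minus C57 -1.05, SE 0.11, adjusted p = 3.52e-08), and this was -0.97 without the C57 basal replicate 3 and -0.73 with a pseudocount of 5 TPM. Nt5dc2, which overlaps Stab1, moved in the same way in SPRET, from 61.2 to 23.2 TPM (log2 change -1.36, SE 0.06, adjusted p = 2.8e-15), while at basal conditions it was higher in SPRET than in C57 by 0.55, opposite to Stab1.

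Cd163 (chr6:124304651-124330527, plus strand) encodes the receptor for haptoglobin-haemoglobin complexes. No library of the 5 strains reached 1 TPM, so it was not tested there. Its basal libraries stood at 0.365, 0.437 and 0.533 TPM in BALB, 0.211, 0.456 and 0.481 TPM in C57, and at most 0.0380 TPM in NOD, 0.0190 TPM in PWK and 0.0160 TPM in SPRET. After IL-4 it was 0.131 to 0.356 TPM in BALB and 0.0390 to 0.367 TPM in C57, and it was listed at 0 in all 3 NOD libraries.

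Mertk (chr2:128698997-128802188, plus strand) encodes the receptor tyrosine kinase through which macrophages engulf apoptotic cells bound by GAS6 or protein S. Its basal libraries stood at 4.65, 5.22 and 8.02 TPM in C57, 5.02, 5.33 and 6.61 TPM in SPRET, 2.64, 2.85 and 3.69 TPM in BALB, 0.905 and 0.928 TPM in PWK and 0.569, 0.993 and 1.05 TPM in NOD. C57 and SPRET overlapped at the top, NOD and PWK at the bottom, and neither pair differed beyond its spread in either condition. Against C57, the basal log2 difference was -0.76 in BALB (SE 0.16, adjusted p = 0.000549), -1.83 in PWK (SE 0.18, adjusted p = 4.67e-09) and -1.88 in NOD (SE 0.16, adjusted p = 2.41e-10). With a pseudocount of 5 TPM, those of PWK and NOD were -0.88 and -0.89, under 2-fold. After IL-4 the differences were -0.67 in BALB (adjusted p = 0.00173), -1.33 in PWK (adjusted p = 1.37e-07) and -1.19 in NOD (adjusted p = 7.51e-07), and -0.61 in PWK and -0.56 in NOD with a pseudocount of 5 TPM. IL-4 lowered Mertk in SPRET, to 3.31, 3.48 and 3.67 TPM (log2 change -0.56, SE 0.16, adjusted p = 0.00724). In C57 it went from a mean of 5.97 to 4.41 TPM and in NOD from 0.871 to 1.35 TPM, and neither change passed. The response of NOD exceeded that of C57 by 0.69 (SE 0.23, adjusted p = 0.0258), and by 0.49 with an adjusted p of 0.0995 without the C57 basal replicate 2.

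Axl (chr7:25756500-25788733, minus strand) encodes the related kinase, which is known to be raised in macrophages by interferon and inflammatory signals. NOD stood apart from the other strains. Its libraries held 45.0, 45.7 and 48.2 TPM at basal conditions and 46.9, 48.4 and 50.1 TPM after IL-4, whereas the other strains ranged from 5.71 to 10.8 TPM at basal conditions and from 4.05 to 8.71 TPM after IL-4. The difference of NOD from C57 was 2.44 at basal conditions (SE 0.11, adjusted p = 2.7e-16) and 3.04 after IL-4 (SE 0.11, adjusted p = 3.24e-18). Among the other strains in the order of basal levels (BALB, C57, PWK, SPRET), no neighbours differed beyond their spread. Strains further apart in this order could differ. SPRET minus C57 was -0.27 and passed, but it was -0.21 with an adjusted p of 0.123 without the C57 basal replicate 2. The response differed in direction between strains. C57 went from 7.18, 7.54 and 8.49 TPM to 4.05, 5.12 and 6.04 TPM and BALB from 8.16, 8.79 and 10.8 TPM to 4.54, 4.84 and 5.41 TPM, whereas SPRET went from 5.71, 6.08 and 6.99 TPM to 7.58, 8.49 and 8.71 TPM. Axl fell by 0.54 in C57 (SE 0.11, adjusted p = 0.000241) and by 0.78 in BALB (SE 0.11, adjusted p = 2.55e-06). It rose by 0.35 in SPRET (SE 0.11, adjusted p = 0.0083), or by 0.21 with an adjusted p of 0.0508 after quantile normalization. Changes of 0.07 in NOD and -0.31 in PWK did not pass. The response differed from that of C57 in SPRET (0.89, SE 0.15, adjusted p = 5.47e-05) and in NOD (0.60, SE 0.15, adjusted p = 0.00357).

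Timd4 (chr11:46810799-46844333, plus strand) encodes TIM-4, a marker of resident macrophages of several tissues. It was low in these cells, at most 1.54 TPM, and passed the filter on low values only through BALB and NOD. Its basal libraries stood at 0.698, 0.709 and 0.803 TPM in BALB, 0.390, 0.477 and 0.685 TPM in NOD, 0.194 and 0.227 TPM in PWK, 0.152, 0.157 and 0.160 TPM in SPRET and 0.0770, 0.0920 and 0.284 TPM in C57. After IL-4, NOD held 1.13, 1.16 and 1.54 TPM and BALB 0.932, 1.17 and 1.46 TPM, while C57 held 0, 0.0820 and 0.248 TPM. In NOD, BALB and SPRET, all IL-4 libraries lay above all basal libraries, and in C57 they overlapped. Since Timd4 entered the test only through groups in which it was high, no test of it is given. On log2(TPM + 1) the change was 0.59 in NOD, 0.33 in BALB and 0.30 in SPRET, and the difference of NOD from C57 after IL-4 was 1.04. These sizes hang on the pseudocount, as the change was 1.17 in NOD and 1.02 in SPRET with a pseudocount of 0.1 TPM, and the difference of NOD from C57 was 0.30 with a pseudocount of 5 TPM.

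Mfge8 (chr7:79133768-79149060, minus strand), whose promoter window held the EGR core, encodes the secreted bridge between phosphatidylserine and integrins. It was the most abundant of the 8 genes in C57 and the gene with the largest strain difference. Its basal libraries stood at 599, 615 and 619.9 TPM in C57, 465, 526 and 537 TPM in BALB, 148, 149 and 159 TPM in NOD, 144 and 147 TPM in PWK and 1.76, 1.83 and 2.41 TPM in SPRET. NOD and PWK were neighbours that did not differ beyond their spread. All other neighbours in this order were separate. Against C57, the basal log2 difference was -0.27 in BALB (SE 0.07, adjusted p = 0.00237), -2.0 in NOD (SE 0.07, adjusted p = 1.84e-18), -2.06 in PWK (SE 0.08, adjusted p = 9.99e-18) and -7.68 in SPRET (SE 0.07, adjusted p = 1.6e-30). As a ratio of mean TPM, C57 was 305 times SPRET.

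After IL-4, Mfge8 libraries stood at 862, 871 and 896 TPM in C57, 701, 701 and 703 TPM in BALB, 162, 171 and 179 TPM in NOD, 168, 168 and 176 TPM in PWK and 2.85, 2.97 and 3.6 TPM in SPRET. It was the one gene of the 8 whose every IL-4 library lay above every basal library in each strain. Mfge8 rose by 0.52 in C57 (SE 0.07, adjusted p = 8.72e-07), 0.46 in BALB (SE 0.07, adjusted p = 7.45e-06) and 0.47 in SPRET (SE 0.07, adjusted p = 3.65e-06). The rise of 0.23 in PWK (adjusted p = 0.0275) was 0.10 with an adjusted p of 0.453 after median-ratio rescaling, and that of 0.16 in NOD did not pass. The response of NOD was smaller than that of C57 (NOD minus C57 -0.35, SE 0.10, adjusted p = 0.00641).

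**Figure D2:**
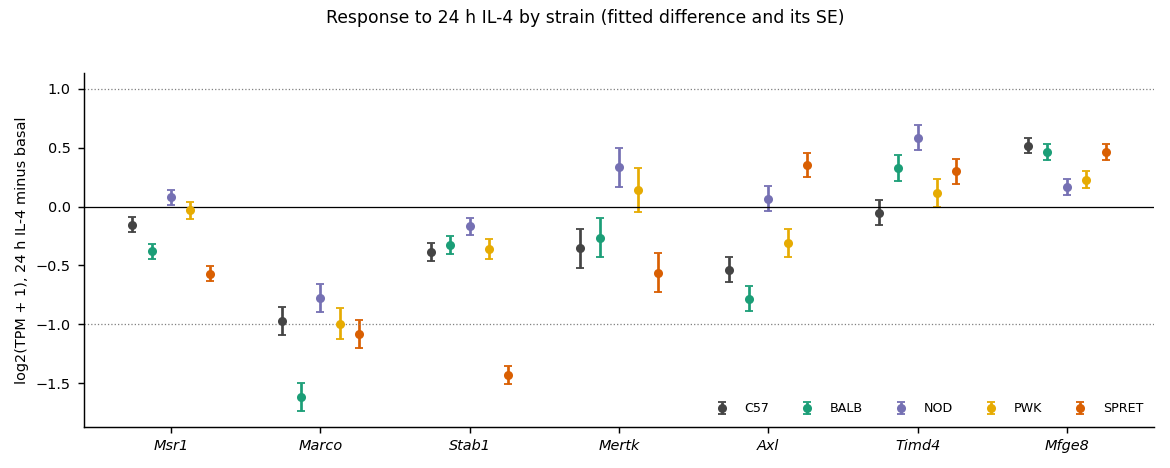
Change of each gene tested after 24 hours of IL-4 in the 5 strains, as the log2 difference of log2(TPM + 1) against basal libraries. Points are limma estimates and bars are standard errors. Marco lies between -0.78 and -1.62 in all 5 strains, Mfge8 lies above 0 in all 5, and Stab1 in SPRET lies at -1.43 against -0.17 to -0.39 in the other strains.

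The time course held separate libraries of C57 and SPRET and shows when the changes of a day appeared. Marco, Stab1 and Mfge8 were again lower in SPRET. At 1 hour, Stab1 in SPRET (-0.27, adjusted p = 0.0368) was the one gene of the 8 to pass in either strain, and it did not pass without either SPRET 1-hour library (adjusted p = 0.188 without replicate 1). At 6 hours, Stab1, Msr1 and Mertk had changed in SPRET and Stab1 in C57. Of 7 genes tested (Timd4 was too low), Marco was called lower in C57 at 24 hours (5.76% of all genes called), and Stab1 was called lower in SPRET at 6 hours (4.57%) and at 24 hours (5.62%). Between SPRET and C57, Marco, Stab1 and Mfge8 were called lower at 0 hours (18.8% of all genes), those and Mertk at 6 hours (18.6%), and Marco, Stab1 and Mfge8 at 24 hours (20.4%). The tables were normalised apart, so levels are compared within a table only.

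Marco in C57 stood at 248 and 273 TPM at 0 hours, 262 and 275 TPM at 1 hour, 232 and 245 TPM at 6 hours and 88.5 and 103 TPM at 24 hours. No change passed at 1 or 6 hours. Marco then fell by 1.31 between 6 and 24 hours (SE 0.14, adjusted p = 1.86e-05), for a change of -1.44 from basal (SE 0.14, adjusted p = 5.38e-06). In SPRET it stood at 4.20 and 6.53 TPM at 0 hours, 6.93 and 7.35 TPM at 6 hours and 2.56 and 2.67 TPM at 24 hours, a change of -0.79 from basal (SE 0.14, adjusted p = 0.000739). SPRET was below C57 at 0 hours (SPRET minus C57 -5.39, SE 0.14, adjusted p = 1.15e-11).

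Stab1 in SPRET stood at 10.5 and 10.6 TPM at 0 hours, 8.41 and 8.82 TPM at 1 hour, 2.96 TPM in both libraries at 6 hours and 1.14 TPM in both at 24 hours, each time below the one before. It fell by 1.55 by 6 hours (SE 0.07, adjusted p = 6.85e-09) and by 2.44 by 24 hours (SE 0.07, adjusted p = 1.29e-10). In C57 it stood at 47.7 and 47.9 TPM at 0 hours, 33.4 and 37.9 TPM at 6 hours and 31.6 and 32.6 TPM at 24 hours (-0.42, adjusted p = 0.0012, and -0.56, adjusted p = 5.19e-05). The response of SPRET was the larger at 6 hours (SPRET minus C57 -1.13, SE 0.10, adjusted p = 2.01e-05; 2.4% of all genes called) and at 24 hours (-1.88, SE 0.10, adjusted p = 1.31e-07; 6.22% of all genes called), the sole gene called at 6 hours and one of 2 at 24 hours. With a pseudocount of 5 TPM these were -0.59 and -0.83. Nt5dc2 on the opposite strand moved with Stab1 in SPRET, by -1.29 at 6 hours (adjusted p = 2.2e-06) and -2.28 at 24 hours (adjusted p = 1.11e-08), and at 0 hours it differed between SPRET and C57 by -0.28 where Stab1 differed by -2.08 ( SE 0.07, adjusted p = 1.18e-10).

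Mertk took different courses in the 2 strains. In C57 it stood at 21.1 and 23.3 TPM at 0 hours, 21.4 and 22.5 TPM at 6 hours and 9.88 and 11.8 TPM at 24 hours. In SPRET it stood at 14.1 and 15.6 TPM at 0 hours, 9.33 and 9.92 TPM at 6 hours and 16.0 and 16.4 TPM at 24 hours, a fall and a return. The change from basal was -0.57 in SPRET at 6 hours (SE 0.10, adjusted p = 0.000753) and -0.97 in C57 at 24 hours (SE 0.10, adjusted p = 7.42e-06). The rise of SPRET between 6 and 24 hours was 0.69 (SE 0.10, adjusted p = 0.000316). The 24-hour responses differed by 1.10 (SPRET minus C57, SE 0.14, adjusted p = 0.000103), or 0.98 without the C57 24-hour replicate 1 and 0.88 with a pseudocount of 5 TPM. SPRET was thus below C57 at 6 hours (SPRET minus C57 -1.11, SE 0.10, adjusted p = 8.29e-07; -0.88 with a pseudocount of 5 TPM) and above it at 24 hours by 0.54 (SE 0.10, adjusted p = 0.000409). In the 5-strain table, mean Mertk went down at 24 hours in both strains, from 5.97 to 4.41 TPM in C57 and from 5.65 to 3.49 TPM in SPRET. The change passed in SPRET and not in C57, and the 2 responses did not differ beyond their spread.

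Mfge8 in C57 stood at 953 and 979 TPM at 0 hours, 775 and 882 TPM at 6 hours and 1469 and 1571 TPM at 24 hours. It rose by 0.88 between 6 and 24 hours (SE 0.20, adjusted p = 0.00557) and by 0.65 from basal (SE 0.20, adjusted p = 0.0235), the latter with an adjusted p of 0.101 without the 24-hour replicate 1. In SPRET it stood at 7.54 and 10.1 TPM at 0 hours and 8.83 and 13.4 TPM at 24 hours, below C57 at 0 hours (SPRET minus C57 -6.63, SE 0.20, adjusted p = 4.45e-11). Msr1 in SPRET, which had exceeded C57 in the 5-strain table, was below it here. Its basal libraries stood at 155 and 157 TPM in SPRET and at 251 TPM in both C57 libraries (SPRET minus C57 -0.68, SE 0.09, adjusted p = 2.67e-05). The 2 tables therefore gave opposite directions for the basal difference of Msr1, while its fall in SPRET over 24 hours was seen in both, by 0.71 here (SE 0.09, adjusted p = 4.8e-05). In C57 it fell by 0.53 here (SE 0.09, adjusted p = 0.000509), whereas the change of -0.15 in the 5-strain table did not pass.

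Axl in C57 stood at 6.85 and 8.01 TPM at 0 hours and 4.40 and 4.62 TPM at 24 hours (-0.61, SE 0.12, adjusted p = 0.00191), and in SPRET at 5.17 and 5.82 TPM and at 4.65 and 6.38 TPM, a change that did not pass. Cd163 was 0.879 and 1.16 TPM in basal C57 and 0 and 0.190 TPM in basal SPRET, without overlap. It entered the test through C57 libraries only, so no test is given. Timd4 reached at most 0.0670 TPM in C57 and between 0.102 and 1.06 TPM in SPRET, and it was not tested.

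**Figure D3:**
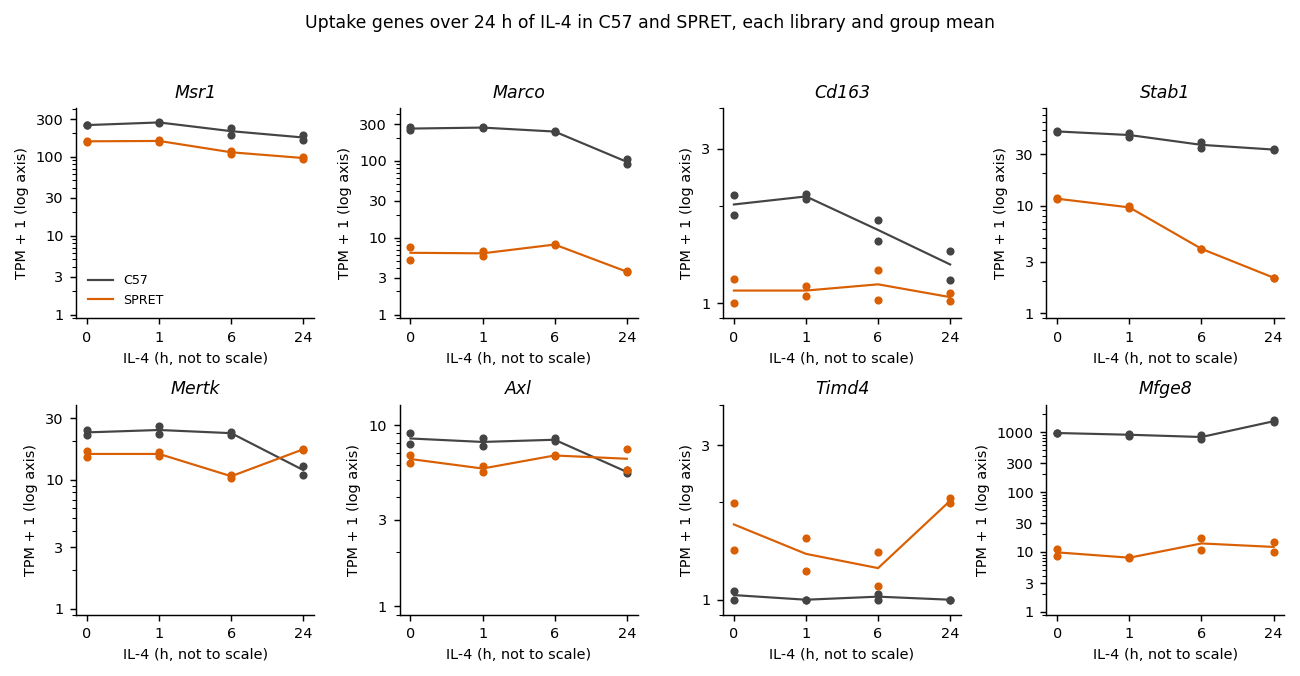
Level of the 8 genes in TPM on a log axis against hours of IL-4 in the C57 and SPRET time course. Points are libraries and lines join the group means. Stab1 in SPRET descends from 10.6 to 1.14 TPM, Marco in C57 goes from 238 TPM at 6 hours to 95.8 TPM at 24 hours, and Mertk in SPRET dips to 9.63 TPM at 6 hours and returns to 16.2 TPM.

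Loss of Egr2 was seen first in Egr2 itself, whose libraries stood at 21.3 and 23.6 TPM in basal Egr2 fl/fl BMDMs and at 0.854 and 0.859 TPM in basal LyzM-Cre Egr2 fl/fl BMDMs, and at 99.5 and 101 TPM against 4.72 and 7.05 TPM after 24 hours (adjusted p = 1.44e-07 and 1.31e-08). Without Egr2, Mfge8 was lower and Marco and Mertk were higher at each of the 4 times. No gene of the 8 tested was called between the genotypes at 0 hours (0.853% of all genes), 1 hour (1.06%) or 6 hours (2.3%). At 24 hours, Mfge8 was called lower and Marco higher (4.55% of all genes), with the median of all genes at 0.12. The response from basal to 24 hours was called for Marco in Egr2 fl/fl BMDMs (4.35%) and for Marco and Axl in LyzM-Cre Egr2 fl/fl BMDMs (4.83%), all lower. No difference in response was called at 24 hours (1.9%).

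Mfge8 stood at 513 and 526 TPM in basal Egr2 fl/fl BMDMs and at 823 and 829 TPM after 24 hours, against 317 and 318 TPM and 335 and 336 TPM in LyzM-Cre Egr2 fl/fl BMDMs. All libraries of the second genotype lay below all of the first. The genotype difference was -0.71 at 0 hours (SE 0.04, adjusted p = 6.33e-07), -0.73 at 1 hour, -0.68 at 6 hours and -1.30 at 24 hours (SE 0.04, adjusted p = 9.78e-10). IL-4 raised Mfge8 by 0.67 in Egr2 fl/fl BMDMs (SE 0.04, adjusted p = 1.28e-07), and the change in LyzM-Cre Egr2 fl/fl BMDMs did not pass. The responses differed by -0.59 (SE 0.06, adjusted p = 5.45e-05).

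Marco stood at 207 and 221 TPM in basal Egr2 fl/fl BMDMs and at 50.7 and 56.2 TPM after 24 hours, against 314 and 321 TPM and 105 and 115 TPM in LyzM-Cre Egr2 fl/fl BMDMs. It fell by 1.98 in the first genotype (SE 0.06, adjusted p = 4.9e-10) and by 1.52 in the second (SE 0.06, adjusted p = 3.15e-09), responses that differed by 0.46 (SE 0.09, adjusted p = 0.00491). The genotype difference was 0.57 at 0 hours (SE 0.06, adjusted p = 0.000116) and 1.03 at 24 hours (SE 0.06, adjusted p = 1.46e-07). The latter came under 2-fold at 0.96 without replicate 1 of either genotype, at 0.90 after median-ratio rescaling and at 0.91 after quantile normalization.

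Mertk stood at 19.0 and 20.4 TPM in basal Egr2 fl/fl BMDMs and at 35.7 and 37.2 TPM in basal LyzM-Cre Egr2 fl/fl BMDMs, and at 17.4 and 19.4 TPM and 23.5 and 27.6 TPM after 24 hours. The groups did not overlap at any of the 4 times. The genotype difference was 0.86 at 0 hours (SE 0.08, adjusted p = 3.31e-05), 0.64 at 1 hour, 0.59 at 6 hours and 0.45 at 24 hours (SE 0.08, adjusted p = 0.000996). Mertk fell in LyzM-Cre Egr2 fl/fl BMDMs by 0.50 over 24 hours (SE 0.08, adjusted p = 0.000568). The response difference of -0.40 had an adjusted p of 0.0407, and of 0.15 without the Egr2 fl/fl 24-hour replicate 1.

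Stab1, read with the same limit on strand, stood at 64.7 and 67.2 TPM in basal Egr2 fl/fl BMDMs and 72.1 and 73.9 TPM in basal LyzM-Cre Egr2 fl/fl BMDMs, and at 40.4 and 41.8 TPM and 73.3 and 80.2 TPM after 24 hours. It fell by 0.67 in the first genotype (SE 0.06, adjusted p = 3.08e-06) and stood near its basal level in the second at 24 hours, where the genotypes differed by 0.88 (SE 0.06, adjusted p = 2.74e-07) and the responses by 0.74 (SE 0.08, adjusted p = 0.000129). At 6 hours it had fallen in both, by 0.51 and 0.46. Nt5dc2 was also higher in LyzM-Cre Egr2 fl/fl BMDMs at 24 hours, by 0.49 (adjusted p = 0.000212), while it was lower at 0 hours (-0.25).

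Axl, the other gene with an EGR core in its window, stood at 11 and 11.6 TPM in basal Egr2 fl/fl BMDMs and 11.9 and 13.2 TPM in basal LyzM-Cre Egr2 fl/fl BMDMs, and at 5.97 and 6.36 TPM and 4.97 and 6.22 TPM after 24 hours. It fell in both genotypes, by 0.78 (SE 0.13, adjusted p = 0.000572) and by 1.05 (SE 0.13, adjusted p = 5.43e-05), the latter by 0.91 without the 24-hour replicate 1, by 0.98 without the basal replicate 1 and by 0.73 with a pseudocount of 5 TPM. The genotypes did not differ beyond their spread at 0 or 24 hours. At 6 hours Axl was higher in LyzM-Cre Egr2 fl/fl BMDMs by 0.52 (adjusted p = 0.014), or by 0.39 with an adjusted p of 0.099 without the Egr2 fl/fl 6-hour replicate 1. Msr1 ranged from 163 to 244 TPM over the 16 libraries and showed no genotype difference that passed. Cd163 ranged from 0.387 to 2.75 TPM and passed between genotypes at 6 hours only (-0.95, adjusted p = 0.0296, and 0.194 without the Egr2 fl/fl 6-hour replicate 1). Timd4 was listed at 0 in most libraries but at 4.65 TPM in 1 library of LyzM-Cre Egr2 fl/fl BMDMs at 1 hour and at 0.930 and 7.06 TPM in the 2 libraries at 6 hours. It entered the test only through libraries of this genotype, where it was high, so no test of it is given.

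**Figure D4:**
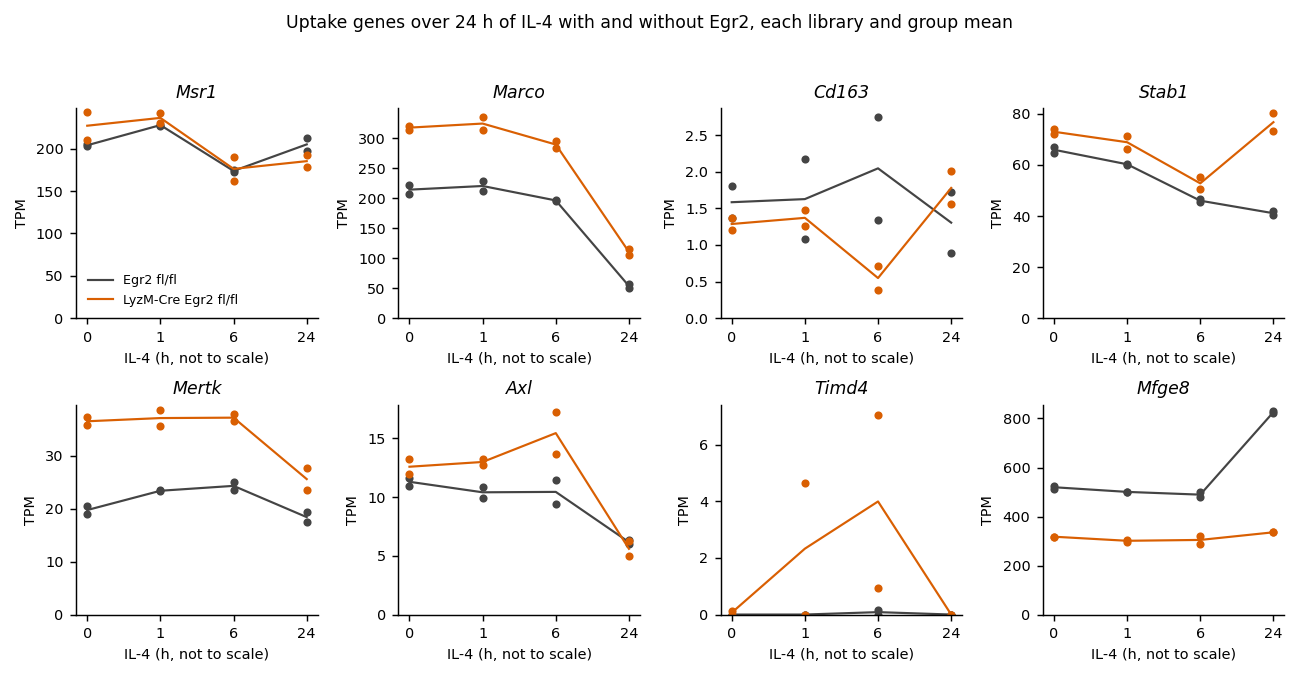
Level of the 8 genes in TPM against hours of IL-4 in Egr2 fl/fl and LyzM-Cre Egr2 fl/fl BMDMs. Points are libraries and lines join the group means. Mfge8 is lower without Egr2 at each time and reaches 336 TPM against 826 TPM at 24 hours, and Marco and Mertk are higher at each time.

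In F1 BMDMs, both alleles sit in the same nucleus, which asks how far a strain difference follows the allele. The values are TPM made from reads weighted by the share that could be assigned to each allele, and their depth is unknown. The length listed was the full span of the gene for 99.3% of genes in C57 x SPRET, against 6.33% in C57 x NOD. Levels in C57 x SPRET may therefore not be on the scale of the parental TPM, where exon lengths were listed for the 8 genes. All columns of a cross sum to nearly the same total, so ratios were taken between alleles of a library on log2(value + 1) and not tested. In C57 x SPRET, the SPRET allele of Mfge8 was below the C57 allele at basal conditions, 38.0 and 39.5 against 159 and 185 (log2 ratios -2.04 and -2.20), and after IL-4, 83.1 and 162 against 431 and 434 (-2.36 and -1.41). Between the parents the ratio was -7.67 and -7.73. Cd163 was also past 2-fold in both libraries of both conditions, with basal ratios of -2.45 and -2.83 and IL-4 ratios of -1.52 and -1.01. Its SPRET allele held low values of 0.613 to 1.44. Between the parents the ratio was -0.46 and -0.18, from means of at most 0.383 TPM. With 0.1 added, the basal ratios were -3.07 and -3.67 against -2.20 between the parents. Those after IL-4 were then -2.39 and -1.39 against -1.04. Marco had basal ratios of -1.19 and -0.92 against -5.29 between the parents, from low values of 2.71 and 1.46 for C57 and 0.624 and 0.298 for SPRET. At such values the added 1 shrinks the ratio, which with 0.1 added was -1.96 and -1.97 against -5.45 between the parents. Stab1 had ratios of -0.48 and -0.62 at basal conditions and -0.83 and -0.37 after IL-4, against -0.71 and -1.75 between the parents. Msr1 had 0.97 and 0.82 in favour of the SPRET allele at basal conditions, against 1.17 between the parents in the 5-strain table and -0.68 in the time course.

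In C57 x NOD, zeros made up 78.9 to 83.6% of each allele column, and both alleles of Marco, Stab1, Axl and Timd4 were listed at 0 in all libraries. The NOD excess of Axl could therefore not be followed there. Mfge8 had alleles of nearly equal value, 2605 and 2336 for C57 and 2217 and 2006 for NOD at basal conditions (log2 ratios -0.23 and -0.22), against -2.0 between the parents. Msr1 favoured the NOD allele by 1.05 and 1.09 at basal conditions, against 0.19 between the parents. Mertk favoured it by 0.75 and 0.61, against -1.90 between the parents, from values of 4.57 to 21.4.

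**Figure D5:**
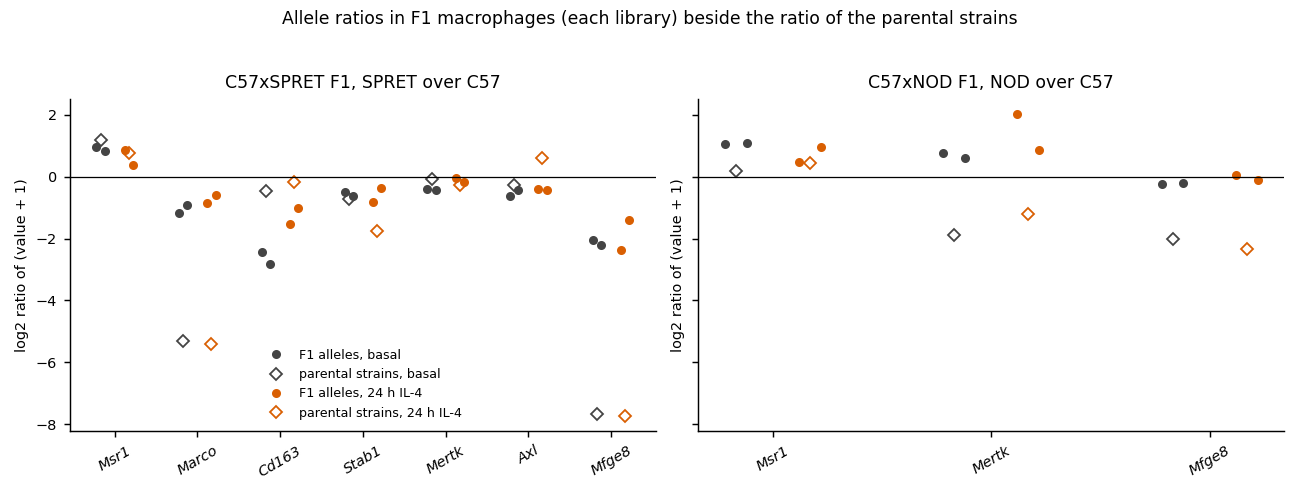
Log2 ratio of the SPRET or NOD allele to the C57 allele in each F1 library, beside the log2 ratio between the parental strains in the 5-strain table. Points are libraries of the F1 and diamonds the parental ratio. Mfge8 in C57 x SPRET lies between -1.41 and -2.36 against -7.67 and -7.73 between the parents, and Mfge8 in C57 x NOD lies between -0.23 and 0.04 against -2.0 and -2.35.

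The 8 genes were set beside 70 other genes of uptake in 5 lists, namely other scavenger receptors, bridging molecules, other apoptotic-cell receptors, engulfment machinery and lipid handling. Of the 57 that could be tested in the 5 strains, 8 were called higher after IL-4 in both C57 and PWK and 6 in each of the other strains. In BALB and in SPRET 2 were called lower, and 0 elsewhere. The share of all genes called in either direction was 3.8% for C57, 3.94% for SPRET, 2.08% for both BALB and PWK, and 1.19% for NOD. The engulfment machinery had no call in any strain. Clec7a, the beta-glucan receptor dectin-1, was called in all 5 strains with a mean log2 change of 3.77, and went from 77.2 to 706 TPM in C57. The mannose receptor Mrc1 (2.51) and the nuclear receptor gene Pparg (1.90) were also called in 5 strains, and Cd36 (1.41), a receptor for oxidised lipoprotein, in 3.

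The bridging molecules are the list to which Mfge8 belongs by role. Of 10 tested at basal conditions, 3 were called lower than in C57 in BALB and 7 in each of NOD, PWK and SPRET, none higher, where 4.81%, 16.9%, 13.3% and 18.1% of all genes were called in either direction. Their median log2 differences were -0.28, -1.80, -1.62 and -1.74. In SPRET, C1qb, C1qc and C1qa, the chains of complement C1q that opsonise dying cells, were lower than in C57 (SPRET minus C57 -7.96, -7.42 and -7.18), C1qb at 3.81 against 1180 TPM. Gas6, the ligand of MERTK and AXL, was lower too (SPRET minus C57 -5.32, SE 0.07), at 1.12 against 83.6 TPM. In the Egr2 table, these 4 genes were called higher in LyzM-Cre Egr2 fl/fl BMDMs at 24 hours, by 1.34 for C1qa, 1.02 for C1qb, 1.09 for C1qc and 1.06 for Gas6, opposite to Mfge8.

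Over the 29 libraries of the 5 strains, which share strains and treatments, the genes whose pattern was most like that of a member were, by Pearson r, Speg (0.99), Galns (0.99) and Klhl22 (0.98) for Mfge8, Oas1c (0.96), Supt4a (0.95) and Sord (0.94) for Marco, Csf1r (0.97), Mir22hg (0.96) and Mfsd6 (0.95) for Mertk, and Nfx1 (0.97), Grina (0.97) and Trim6 (0.96) for Axl. For Msr1 they were Afdn (0.92), Ctsf (0.90) and Ksr1 (0.88), for Stab1 Itm2b (0.91), Tbkbp1 (0.87) and Unc13d (0.86), and for Timd4 Pgm5 (0.89), Arl8b (0.87) and Gprc5a (0.84).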

How the data were processed

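Libraries of poly(A) RNA (69) were analysed. The authors mapped them to strain-specific genomes with STAR, moved positions to mm10 with MMARGE and made the deposited TPM values with HOMER. The deposited F1 values are TPM made by the authors from reads weighted by their allele ratio. The authors' own comparisons (DESeq2 fold changes and p-values) and a human table were left out.

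The test was limma 3.58.1 (R 4.3.3) on log2(TPM + 1), with 1 mean per group, 1 model per table and trended empirical Bayes variances. Genes reaching 1 TPM in 2 or more libraries entered (5 strains 11907, time course 12088, Egr2 12079), and p-values were adjusted by Benjamini-Hochberg. Differences in response are interaction contrasts. The 8 genes and all lists were chosen with earlier results of these data known. By rule the text names the 8 genes, the 4 list genes with the largest mean IL-4 change among those called in at least 2 strains, the 4 with the largest basal difference from C57, the 3 genes most like each of the 8, and Egr2. Nt5dc2 was added after values were seen. Levels rest on 4.69 to 32.9 M tags per library, and no counting interval was computed since counts per gene were not used here.

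Alternatives were pseudocounts of 0.1 and 5 TPM, other filters, median-ratio rescaling, quantile normalization, fits of only the groups compared, a replicate block and leaving out each library. The test was tried on simulated tables in which 200 genes had a log2 change of 2. These genes were drawn from those with a mean above 2 on log2(TPM + 1), so genes near 1 TPM and changes near 2-fold were not tried. It called 100% of them for IL-4 in C57 (11004 genes), 99.5% for C57 at 1 hour of the time course (11567 genes) and 97% for the Egr2 genotypes at 0 hours (11820 genes). Plots were made with matplotlib 3.10.9.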

Additional observations from a re-analysis of the deposited data

Results flagged for a closer look

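Differences in response between SPRET and C57 stood out for 2 genes, by a test of the difference itself (limma interaction contrasts). For Stab1 the SPRET response was the stronger fall in both sets of libraries, with SPRET minus C57 -1.05 at 24 hours in the 5-strain table, -1.13 at 6 hours and -1.88 at 24 hours in the time course. Over the alternatives these ranged from -1.21 to -0.73, from -1.37 to -0.59 and from -2.53 to -0.83, with adjusted p-values of at most 1.21e-05, 0.000976 and 1.97e-05. Nt5dc2, which overlaps Stab1 on the opposite strand, moved with it in SPRET, and its part in these values was not tested. For Mertk the SPRET response at 24 hours of the time course exceeded that of C57 by 1.10, with a range of 0.88 to 1.22 and an adjusted p of at most 0.00109. In the 5-strain table the same difference for Mertk was -0.21 (SE 0.23, adjusted p = 0.524), so the 2 sets of libraries did not share a direction. The values under 2-fold were -0.97 for Stab1 in the 5-strain table without the C57 basal replicate 3, 0.98 for Mertk without the C57 24-hour replicate 1, and those with a pseudocount of 5 TPM.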

How the results depend on the processing

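The counts of calls among the 8 genes kept within 1.5 times of those reported under most alternatives. Counts of tested differences took in every gene that passed the filter, so also Timd4 and Cd163 where no test of them is given above. For the 24-hour response in the 5 strains, 3 calls became 6 with a pseudocount of 0.1 TPM and 5 after quantile normalization. The 6 included Timd4 in NOD and in SPRET. For the difference of response from C57, 1 call became 5 with a pseudocount of 0.1 TPM and 0 with one of 5 TPM. The 5 included Timd4 in NOD. When single libraries were left out, the count ranged from 0 to 2. In the time course, 3 calls for the difference of response became 0 with a pseudocount of 5 TPM and ranged from 2 to 4 without single libraries. Between the Egr2 genotypes, 2 calls became 1 with a pseudocount of 5 TPM, after median-ratio rescaling and after quantile normalization, and ranged from 1 to 4 without single libraries. Timd4 was among the genes counted there. In the F1, 5 ratios past 2-fold in both libraries became 8 with a pseudocount of 0.1. The other counts, leaving out single libraries, ranged from 3 to 4 for IL-4 in the 5 strains, were 10 for basal levels, and ranged from 10 to 12 for levels after IL-4 (Timd4 included), 3 to 4 and 13 to 14 for IL-4 and strain in the time course, 2 to 4 for IL-4 in the Egr2 table and 5 to 6 in the F1. The cause of these changes was not tested.

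The 159 single results past an adjusted p of 0.05 were recomputed 3977 times in all. Of these values, 3804 kept direction and side of the threshold, 172 lost the threshold and 1 reversed. The 159 included Timd4 in the 5 strains and Cd163 in the time course, of which no test is given above. The reversed value was the response of Msr1 in NOD against C57, which is not given above. It was 0.23 and passed with the settings of the text, and -0.0055 after median-ratio rescaling (adjusted p = 0.969). Replicate numbers were not taken to pair the libraries, since in no strain or genotype was r of the residuals over 0.1 in every same-numbered pair. It ranged from -0.14 to 0.33 in all, and in BALB, where all pairs were positive, from 0.09 to 0.33 (mean 0.19). With a replicate block, 4 calls against 3 were made for IL-4 in the 5 strains, 156 of the 159 single results stayed past the threshold and 3 did not (Stab1 between the Egr2 genotypes at 6 hours, Msr1 in Egr2 fl/fl at 6 hours and the response difference of Mertk at 24 hours). Depth per gene is unknown, and levels below 1 TPM (Cd163, Timd4) are not resolved.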
